A study of Mus musculus with 24 samples.

Results

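The comparison described here asks whether the change between day 14 and sham kidneys was the same in bound and in unbound RNA. For every gene, bound minus unbound RNA was taken within each mouse on the log2 scale, and the mean of the day 14 (D14) mice minus the mean of the sham mice is called the difference of differences. A positive value means that the gene stood higher in bound relative to unbound RNA at D14 than in sham. All genes of the table entered: 13721 of 40750 reached at least 1 RPKM (reads per kilobase of gene, scaled to library size) in at least 3 libraries and were tested. The comparison rests on 12 of the 24 libraries, from 3 D14 and 3 sham mice with both fractions each.

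All mice were males of 8 to 10 weeks on a mixed background, heterozygous for Kim1-GCE (Kim1-GCE+/-) and for EGFPL10a (EGFPL10a+/-). D14 mice had bilateral ischemia-reperfusion injury (IRI), with the renal pedicles clamped for 20 minutes, and kidneys taken 14 days later. Sham mice had the same surgery without the clamp, carry the same alleles, and have no separate day of harvest in the labels. Per the design text, tamoxifen (written there as taxomifen) was given 6 hours before and 24 hours after injury. The other 12 libraries, from D2 and D7 after the same injury, were used for the spread between mice and for 2 further comparisons.

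Kim1-GCE places an inducible Cre recombinase under the control of the gene for kidney injury molecule 1 (Havcr1), which proximal tubule cells switch on when injured. Cre then permits EGFPL10a, a ribosomal protein of the large subunit fused to green fluorescent protein, and beads with an antibody against that tag pull down ribosomes with their mRNA. This method is called translating ribosome affinity purification (TRAP). The pulled-down RNA is the bound fraction, labelled as cell-type specific, and the remainder is the unbound fraction, which stands for the whole kidney. The proximal tubule reabsorbs most of the filtered solutes through transporters of its brush border, runs on mitochondrial oxidation, and is the segment most sensitive to ischemia. In an uninjured kidney the driver gene is known to have little activity, and how many cells carried the tag in sham was not measured here. Bulk RNA cannot tell fewer cells of a type from less RNA per cell.

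The driver gene Havcr1 was checked first. It had 53.6, 33.7 and 21.7 RPKM in D14 bound RNA, 18.4, 20.6 and 34.3 RPKM in D14 unbound RNA, 1.51, 1.49 and 5.61 RPKM in sham bound RNA and 4.32, 3.93 and 24.1 RPKM in sham unbound RNA (replicates 1 to 3). Every D14 bound library was above every sham bound library, while the unbound groups overlapped between D14 mice 1 and 2 and sham mouse 3. In sham, Havcr1 was lower in bound than in unbound RNA (log2 -1.47, limma adjusted p = 0.0038), so the sham pull-down was not enriched for the driver. Inferred depth was 17240000 to 24650000 reads in the 12 libraries. D14 mouse 3 stood apart in both fractions: across genes its r with the other D14 libraries was 0.897 and 0.893 in bound and 0.941 and 0.933 in unbound RNA, against 0.975 and 0.98 between mice 1 and 2. Counts of calls are therefore also given without that mouse where they move by over 1.5 times.

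The D14 change differed between the fractions for 862 genes, 6.28% of those tested, at an adjusted p under 0.05 in limma over the 12 within-mouse differences. Of these, 466 were positive (3.4%) and 396 negative (2.89%). Of the gene lists described below, proximal tubule transporters (17 of 35), S3 segment genes (6 of 13), brush border genes (6 of 23) and ribosomal protein genes (8 of 60) held the most positive calls. Glycolytic enzymes (6 of 18) and injury genes (6 of 45) held the most negative calls. The median over all tested genes was -0.12 on the log2 scale, with a median SE of 0.33.

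Most called genes differed between the fractions in sham and not at D14. Bound and unbound RNA differed for 359 genes at D14 (2.62% of those tested), 109 higher (0.794%) and 250 lower (1.82%) in bound RNA. In sham they differed for 5391 genes (39.3%), 2880 higher (21%) and 2511 lower (18.3%). Of the 466 positive genes, 2 were called higher and 0 lower in bound RNA at D14, while 457 were called lower in bound RNA in sham. The 396 negative genes mirrored this, with 19 called lower and 10 higher in bound RNA at D14, and 366 called higher in bound RNA in sham. The median bound minus unbound difference of the positive genes was 0.01 at D14 and -1.39 in sham, and that of the negative genes was 0.08 at D14 and 1.36 in sham. The absolute difference between fractions was smaller at D14 than in sham for 814 of the 862 genes, and for 9546 of all 13721 tested genes. Since the sham difference is part of the tested value, these counts describe the calls and are no separate test.

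**Figure D1:**
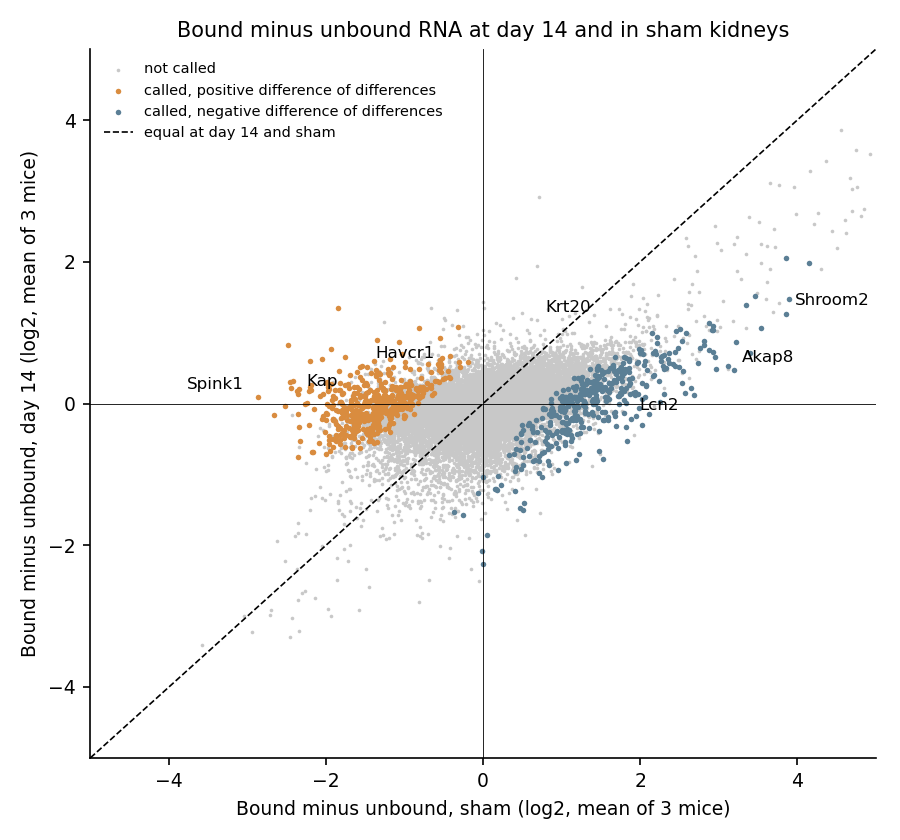
Bound minus unbound RNA (log2 of RPKM + 0.5, mean of 3 mice) of every tested gene at D14 (vertical axis) and in sham (horizontal axis), with 9 genes outside the axes. Most called genes lie away from 0 on the sham axis, to either side, and nearer 0 on the D14 axis, and the dashed line marks equal differences.

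Within a fraction, D14 against sham was called for 1824 genes in bound RNA (13.3% of those tested), 1195 higher (8.71%) and 629 lower (4.58%). In unbound RNA it was called for 169 genes (1.23%), 135 higher (0.984%) and 34 lower (0.248%). Both counts rest on a spread pooled over the bound and unbound libraries. Of the 466 positive genes, 260 rose in bound RNA and 7 fell in unbound RNA. Of the 396 negative genes, 153 fell in bound RNA and 11 rose in unbound RNA. No gene of the 862 was called in both fractions and 431 were called in neither, against 100 and 11828 of all 13721 tested genes. The fitted changes of bound and unbound RNA had opposite signs for 715 of the 862, against 5436 of all tested genes. The tested value is the bound change minus the unbound change, so these counts describe the calls and are no separate test. The median gene shifted by 0.18 in bound and 0.22 in unbound RNA, and by 0.01 and -0.01 after median-ratio rescaling. After that rescaling 41.4% of the bound calls were higher, against 65.5% without it, and in unbound RNA 66.1% against 79.9%. Of the calls in the difference of differences 64.9% were positive after rescaling and 69.7% after quantile normalization, against 54.1% as deposited.

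The count rests on few mice. Without D14 mouse 1 it was 10, without D14 mouse 2 it was 8 and without D14 mouse 3 it was 1754, of which 792 were among the 862. Without sham mouse 1 it was 318, without sham mouse 2 it was 86 and without sham mouse 3 it was 1116. A fit that ignores which libraries come from the same mouse called 27 genes, all among the 862. Of the 862 genes, 857 had D14 differences that did not overlap the sham differences (no overlap was seen for 28% of all tested genes), which fixes the sign of their value when 1 mouse is left out. Leave-one-out counts of the parts moved as well: 596 to 2855 genes for bound RNA, 21 to 639 for unbound RNA, 59 to 610 for bound against unbound at D14 and 3488 to 5621 for the same in sham. The lowest of these came without D14 mouse 1 in bound RNA and at D14, without sham mouse 3 in unbound RNA, and without sham mouse 2 in sham. The highest came without D14 mouse 3 in bound RNA and in sham, without D14 mouse 2 in unbound RNA, and without sham mouse 3 at D14. In unbound RNA, leaving out D14 mouse 3 gave 88 genes, against 169 with all mice.

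Taken mouse by mouse, the fractions were closer at D14. In D14 mice 1 to 3, 9.29%, 7.11% and 11.1% of tested genes were over 2-fold apart between bound and unbound RNA, against 25.1%, 25.2% and 22.9% in sham mice. The groups do not overlap. The mean was 9.17 ± 2.00% at D14 and 24.4 ± 1.3% in sham (SD, n = 3 each), with a two-sided exact permutation p of 0.1, the smallest that 3 against 3 allows. D2 mice had 20.7%, 6.03% and 9.42%, and D7 mice 8.07%, 10.9% and 10.8%, so only the first D2 mouse came near the sham range. Across genes, r between the fractions of a mouse was 0.958, 0.966 and 0.939 at D14, against 0.91, 0.908 and 0.914 in sham.

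**Figure D2:**
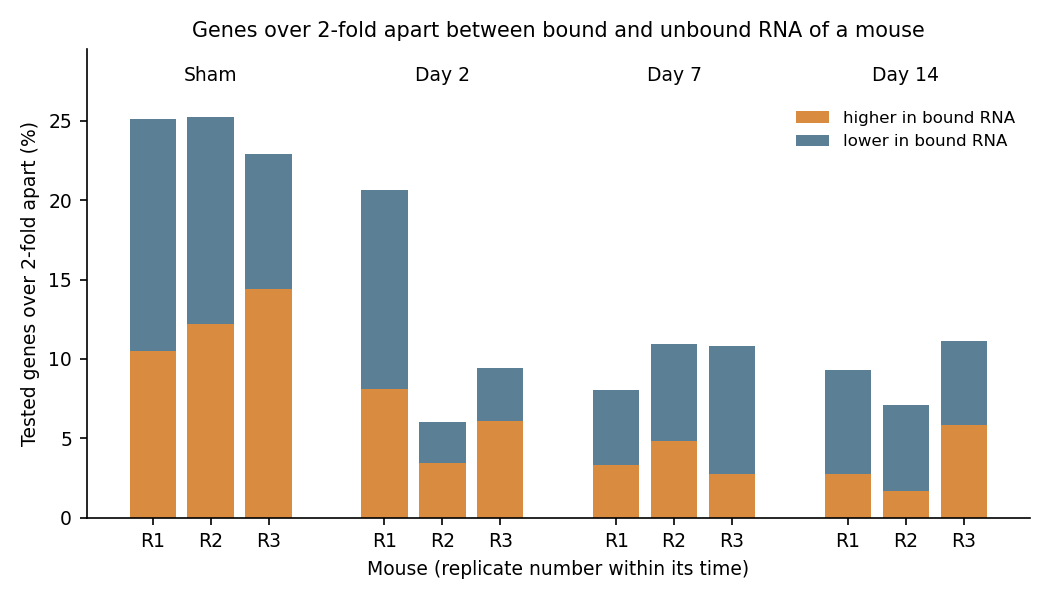
Share of tested genes (%) over 2-fold apart between bound and unbound RNA, 1 bar per mouse, split by direction, in sham, D2, D7 and D14 kidneys. D14 bars reach 7.11% to 11.1% and sham bars 22.9% to 25.2%.

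No gene passed when D14 was set against an earlier injured time. Compared with D7, limma called 0 genes (0%) at an adjusted p under 0.05, with 654 at an unadjusted p under 0.05 and a smallest adjusted p of 0.442. Compared with D2 it also called 0 (0%), with 1290 at an unadjusted p under 0.05 and a smallest adjusted p of 0.0756. Without D14 mouse 3 the counts were 0 and 11. The median difference of the positive genes was -1.39 in sham, -0.67 at D2, -0.21 at D7 and 0.01 at D14. That of the negative genes was 1.36, 0.58, 0.25 and 0.08 at the same times. Bound and unbound RNA differed for 1304 genes at D2 (9.5%), 719 higher (5.24%) and 585 lower (4.26%) in bound RNA. At D7 they differed for 1563 genes (11.4%), 587 higher (4.28%) and 976 lower (7.11%). These values share the sham and D14 mice with the test that chose the genes.

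The genes named by size are given first, beginning with those of positive value. Spink1, a trypsin inhibitor, had 3284, 3719 and 838 RPKM in D14 bound RNA, 2182, 2728 and 1426 RPKM in D14 unbound RNA, 609.9, 443 and 299.6 RPKM in sham bound RNA and 3570.4, 3407 and 2589 RPKM in sham unbound RNA. Sham bound libraries were the low group, and the D14 fractions overlapped. Its difference of differences was 2.96 (SE 0.46, limma adjusted p = 0.0115), and its rise in bound RNA was called (log2 2.33, adjusted p = 0.0035).

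Kap, the androgen-regulated protein of the mouse proximal tubule, is known as an abundant kidney transcript. It had 44318, 33832 and 10249 RPKM in D14 bound RNA, 27065, 32543 and 13157 RPKM in D14 unbound RNA, 6091, 4206 and 2579 RPKM in sham bound RNA and 26863, 26120.0 and 12589 RPKM in sham unbound RNA. Mouse 3 was lowest in each of the 4 groups, and all sham bound values lay below every other library. Its difference of differences was 2.49 (SE 0.49, limma adjusted p = 0.0179).

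Calml4, a calmodulin-like light chain of the brush border myosin, had 1136, 988 and 262 RPKM in D14 bound RNA, 637, 661 and 358 RPKM in D14 unbound RNA, 141, 153 and 103 RPKM in sham bound RNA and 720.1, 701 and 685 RPKM in sham unbound RNA. The sham unbound libraries were tight and the D14 bound libraries spread, with mouse 3 low. The value was 2.74 (SE 0.39, adjusted p = 0.00832 in limma). Guca2b, the gene of uroguanylin, a peptide that promotes salt excretion, averaged 1592 ± 1005 RPKM in D14 bound and 1391 ± 518 RPKM in D14 unbound RNA, against 362 ± 65.4 RPKM in sham bound and 2072 ± 169.8 RPKM in sham unbound RNA (SD, n = 3 each). Its value was 2.49 (limma adjusted p = 0.0146).

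Apoc3, an apolipoprotein of triglyceride-rich particles, had the largest value of the named genes, 3.30 (SE 0.54, limma adjusted p = 0.0119). It had 38.6, 26.9 and 4.57 RPKM in D14 bound RNA, 11.7, 13.7 and 5.22 RPKM in D14 unbound RNA, 6.83, 5.35 and 1.96 RPKM in sham bound RNA and 30.6, 28.1 and 20.1 RPKM in sham unbound RNA. Neither fraction alone was called for it (bound 1.90, adjusted p = 0.068, and unbound -1.41, adjusted p = 0.25). The other genes named by size on this side were Mir7016 (3.20), the secretoglobin gene Scgb1c1 (2.81), Serpina1a (2.68), the amino acid transporter gene Slc7a12 (2.56), Fam25c (2.50), Smlr1 (2.45) and Tmigd1 (2.44), an adhesion protein gene of epithelia. Some of these measurements are uncertain. Mir7016 is 72 bases long and lies inside Tmem39b on the same strand, Serpina1a, an alpha-1 antitrypsin gene, has near-identical copies, and Scgb1c1, like Calml4, overlaps a gene on the opposite strand, with no statement on whether counting used strand. All 12 lost their call without D14 mouse 1 or without D14 mouse 2, with adjusted p up to 0.316 over the alternatives tried.

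**Figure D3:**
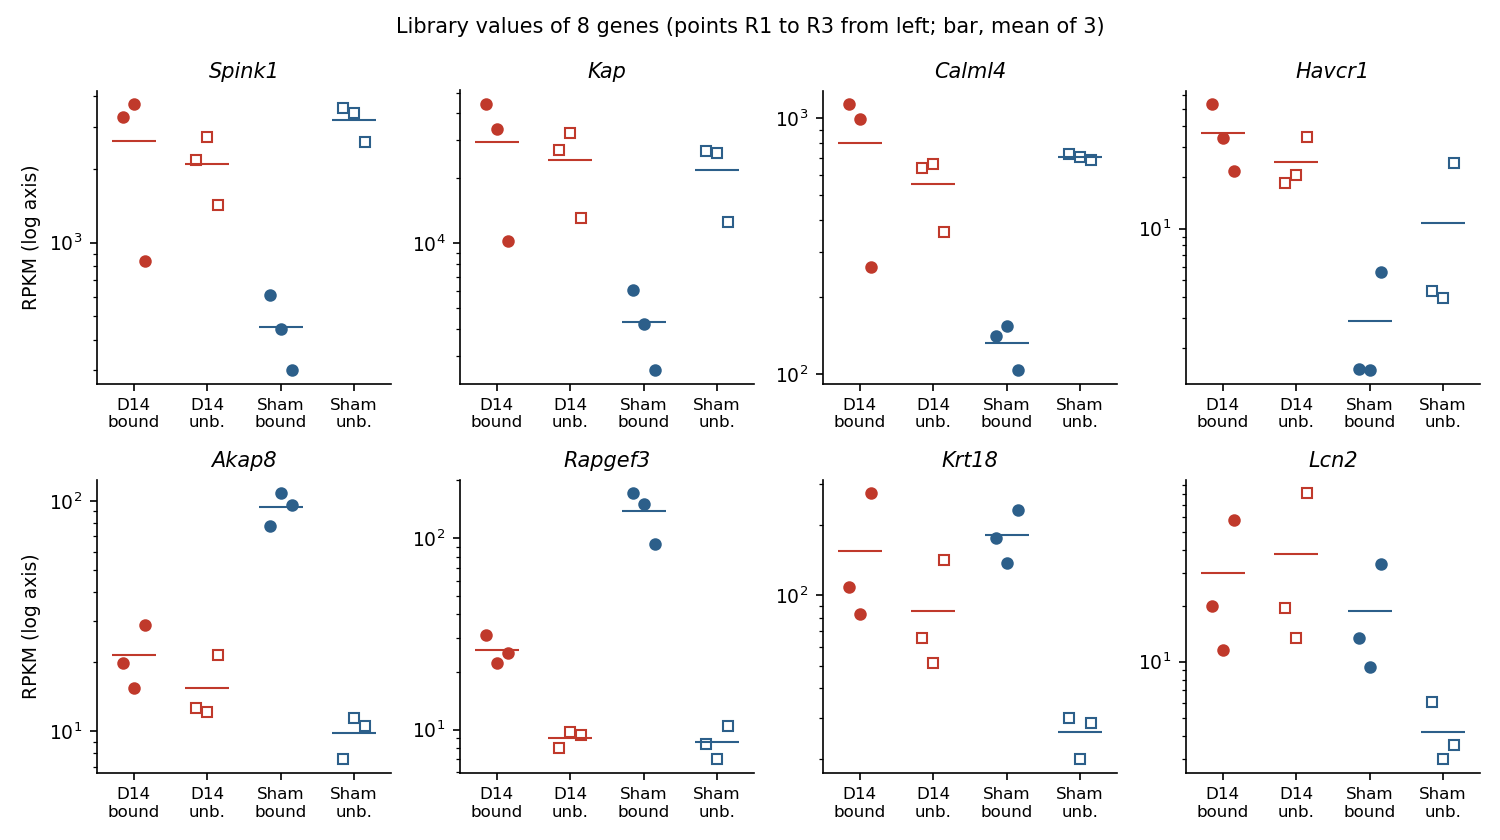
RPKM on a log axis of 8 genes in D14 bound, D14 unbound, sham bound and sham unbound libraries (points, replicates 1 to 3 from left; bar, mean of 3). Spink1, Kap, Calml4 and Havcr1 are low in sham bound RNA, Akap8 and Rapgef3 are high there, and Krt18 and Lcn2 are low in sham unbound RNA.

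The largest negative value among the genes named by size was that of Akap8. Akap8, a nuclear anchor of protein kinase A, had 19.8, 15.4 and 29.0 RPKM in D14 bound RNA, 12.6, 12.1 and 21.4 RPKM in D14 unbound RNA, 77.7, 108 and 95.6 RPKM in sham bound RNA and 7.54, 11.5 and 10.5 RPKM in sham unbound RNA. Sham bound libraries stood far above the rest, which lay within 7.54 to 29.0 RPKM. The difference of differences was -2.73 (SE 0.55, limma adjusted p = 0.0201), and the fall in bound RNA was called (log2 -2.14, adjusted p = 0.0037). Its relative Akap8l had -2.47 (adjusted p = 0.0345).

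Rapgef3, an exchange factor for Rap that cAMP activates, was the one gene of those named by size still called higher in bound than in unbound RNA at D14. It had 31.1, 22.2 and 25.2 RPKM in D14 bound RNA, 8.02, 9.73 and 9.39 RPKM in D14 unbound RNA, 172, 149.6 and 93.5 RPKM in sham bound RNA and 8.37, 6.98 and 10.5 RPKM in sham unbound RNA. The unbound groups overlapped. Bound stood above unbound RNA by a log2 of 1.47 at D14 (limma adjusted p = 0.027) and of 3.90 in sham (adjusted p = 1.8e-05), which gave -2.43 (SE 0.45, adjusted p = 0.0156). The gene overlaps 2 antisense genes.

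The actin-binding Shroom genes behaved alike. Shroom2 averaged 4.62 ± 1.28 RPKM in D14 bound and 1.62 ± 0.540 RPKM in D14 unbound RNA, against 17.2 ± 3.56 RPKM in sham bound and 0.713 ± 0.207 RPKM in sham unbound RNA (SD, n = 3 each). Shroom4 averaged 5.59 ± 2.09 and 3.11 ± 0.377 RPKM in the D14 bound and unbound groups, against 33.0 ± 11.5 and 2.53 ± 0.0374 RPKM in the sham bound and unbound groups. Their values were -2.60 (limma adjusted p = 0.0457) and -2.68 (adjusted p = 0.0201). Mylk, the myosin light chain kinase gene, had -2.57, Ppp1r9a, an actin-binding targeting subunit of protein phosphatase 1, -2.48, and Arhgap18, a GTPase-activating protein, -2.42.

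The remaining negative genes named by size were the keratin gene Krt23 (-2.60), the corepressor gene Bcor (-2.43), the cornified envelope gene Scel (-2.36) and Ranbp2 (-2.35), a component of the nuclear pore. Ranbp2 had 5.74, 4.75 and 6.68 RPKM in D14 bound RNA, 2.96, 2.27 and 3.48 RPKM in D14 unbound RNA, 38.6, 25.03 and 17.1 RPKM in sham bound RNA and 1.86, 2.80 and 2.29 RPKM in sham unbound RNA. Only its sham bound libraries left a narrow low range. Mylk and Ppp1r9a overlap other genes. None of the 12 negative genes was called without D14 mouse 1 or without D14 mouse 2, and their adjusted p reached 0.153 at most over the alternatives.

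The counts of every gene list below fell to 0 when D14 mouse 1 or D14 mouse 2 was left out, and also when the libraries were not paired by mouse. Without D14 mouse 3, calls over all 13721 tested genes rose from 466 to 716 positive and from 396 to 1038 negative. List counts given without that mouse therefore stand beside larger shares over all genes. Without sham mouse 1, calls over all tested genes were 161 positive and 157 negative. The same counts were 61 and 25 without sham mouse 2, and 718 and 398 without sham mouse 3. Proximal tubule transporter genes formed the largest group of positive calls among the gene lists. Of 35 tested, 17 were called positive and 0 negative, with a list median of 1.04 beside -0.12 over all genes. A separate list of proximal tubule regulators did not share this: of 16 tested, 0 were positive and 1 negative, with a median of 0.21. Abcc2, an apical export pump for conjugates, had 16.0, 15.3 and 7.48 RPKM in D14 bound RNA, 14.3, 14.7 and 8.74 RPKM in D14 unbound RNA, 5.96, 8.24 and 6.40 RPKM in sham bound RNA and 12.8, 19.6 and 13.4 RPKM in sham unbound RNA. D14 mouse 3 alone fell into the sham bound range. Its value was 1.08 (SE 0.21, limma adjusted p = 0.019). Slc47a1, an apical exporter of organic cations, averaged 60.1 ± 26.9 and 68.3 ± 18.5 RPKM in D14 bound and unbound RNA, against 24.7 ± 2.64 and 65.6 ± 5.56 RPKM in sham bound and unbound RNA (SD, n = 3 each), a value of 1.12 (limma adjusted p = 0.0217). The cystine carrier subunit gene Slc7a9 had 1.44. Slc22a6, the organic anion carrier OAT1, had 1.04 (SE 0.27, limma adjusted p = 0.0372).

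Of the 35 transporter genes, 2 were called lower in bound than in unbound RNA at D14 and 33 in sham. The list median of bound minus unbound RNA was -0.28, -0.08 and -0.66 in D14 mice 1 to 3 and -1.10, -1.31 and -1.50 in sham mice. Within fractions, 4 members rose in bound RNA and 0 changed in unbound RNA. The sodium-phosphate carrier gene Slc34a1 (0.73, adjusted p = 0.13) and the glucose carrier gene Slc5a2 (0.40, adjusted p = 0.485), both of the early segments, did not pass in limma. The count was 21 of 35 without D14 mouse 3, 10 without sham mouse 3, 5 without sham mouse 1 and 0 without sham mouse 2.

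Genes of the S3 segment, the last part of the proximal tubule, gave 6 positive calls of 13 tested and 0 negative, with a median of 1.29. Of 10 markers of the S1 segment, 0 were called in either direction, with a median of 0.29. The difference between the segments was not tested. Besides Kap and Slc7a12, the S3 calls were Slco1a6 (1.28), an organic anion carrier gene, Slc27a2 (1.22), a fatty acid transport protein, the amino acid carrier gene Slc7a13 (1.80) and the sodium-glucose carrier gene Slc5a1 (1.16). Summed RPKM of the S3 list ran from 10813 to 46283 in D14 bound RNA and 13985 to 34313 in D14 unbound RNA, against 3194 to 6947 in sham bound RNA and 14421 to 29260.0 in sham unbound RNA. The 3 sham bound libraries lay below all others. The S3 count was 8 without D14 mouse 3, 4 without sham mouse 3, 3 without sham mouse 1 and 0 without sham mouse 2.

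Of 23 tested genes of endocytosis and the brush border, 6 were positive and 0 negative (median 0.71). Ggt1, the apical gamma-glutamyltransferase, had 307, 285 and 77.2 RPKM in D14 bound RNA, 243, 266 and 113 RPKM in D14 unbound RNA, 165, 141 and 88.8 RPKM in sham bound RNA and 421, 398 and 282 RPKM in sham unbound RNA. D14 mouse 3 was again the low one, in both fractions, and the value was 1.46 (SE 0.28, limma adjusted p = 0.0177). The angiotensin-converting enzyme gene Ace (1.18), the scaffold gene Slc9a3r1 (1.19), the brush border cadherin gene Cdhr5 (1.24) and the trehalase gene Treh (0.93) were among the other calls. Lrp2, the gene of the endocytic receptor megalin, was not (-0.11, limma adjusted p = 0.839). The list had 2 calls without sham mouse 1 and 0 without sham mouse 2.

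Nuclear genes of oxidative phosphorylation had 5 positive and 0 negative calls of 34 tested, with a median of 0.86. Ndufa4, a subunit of the cytochrome oxidase complex, had 4894, 4865 and 1834 RPKM in D14 bound RNA, 3526, 3667 and 2576 RPKM in D14 unbound RNA, 954, 888 and 1218 RPKM in sham bound RNA and 3626, 3343 and 3618 RPKM in sham unbound RNA. Sham bound libraries were lowest, and D14 mouse 3 lay between them and the rest. Its value was 1.93 (SE 0.41, limma adjusted p = 0.022). Ndufb5 of complex I (1.28), the ATP synthase subunit genes Atp5j (1.45) and Atp5g1 (0.94) and the cytochrome oxidase gene Cox6c (1.43) were the other calls. There were 11 positive and 2 negative calls without D14 mouse 3, 12 and 1 without sham mouse 3, and none without sham mouse 1 or 2.

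The 7 tested mitochondrial-encoded genes had 0 calls in either direction and a median of -0.32. They were lower in bound than in unbound RNA at both times, by list medians of -2.65 at D14 and -2.27 in sham, and all 7 were called lower in each. Cytosolic ribosomes do not translate these transcripts. mt-Nd4 of complex I had 233, 247 and 327 RPKM in D14 bound RNA and 1760.1, 1864 and 1410.3 RPKM in D14 unbound RNA, against 342, 327 and 157 RPKM in sham bound RNA and 1276, 1669.9 and 918 RPKM in sham unbound RNA. Its difference of differences was -0.38 (limma adjusted p = 0.597). Of the list, mt-Atp6, mt-Atp8 and mt-Nd4l are listed at 0 in all 12 libraries.

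Among 60 tested cytosolic ribosomal protein genes, 8 were positive and 0 negative, with a median of 0.94. Rps19 of the small subunit had 64.9, 50.8 and 59.1 RPKM in D14 bound RNA, 65.4, 53.5 and 71.9 RPKM in D14 unbound RNA, 14.8, 17.6 and 17.0 RPKM in sham bound RNA and 53.1, 67.4 and 52.5 RPKM in sham unbound RNA. Sham bound libraries were low by a wide gap, and D14 mouse 3 did not differ from its group here. The value was 1.65 (SE 0.30, limma adjusted p = 0.0156). Rpl17 (1.30), Rpsa (0.98), Rps23 (1.57), Rps7 (1.31), Rpl14 (1.28), Rpl34 (1.38) and Rpl32 (1.60) were the other calls. In bound RNA alone 40 of the 60 rose and 0 fell, and in unbound RNA 0 changed. These genes have many processed copies in the genome with which reads may be shared. The count was 16 without D14 mouse 3, 20 without sham mouse 3, 1 without sham mouse 1 and 0 without sham mouse 2.

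Enzymes of glycolysis gave 6 negative and 0 positive calls of 18 tested, with a median of -0.41. Hk1, the hexokinase that starts the pathway, had 12.1, 6.72 and 21.6 RPKM in D14 bound RNA, 11.1, 10.3 and 12.7 RPKM in D14 unbound RNA, 25.6, 25.6 and 37.5 RPKM in sham bound RNA and 9.02, 8.53 and 10.8 RPKM in sham unbound RNA. Its value was -1.48 (SE 0.29, limma adjusted p = 0.0177), and it fell in bound RNA (log2 -1.23, adjusted p = 0.0062). All 3 phosphofructokinase genes, whose products catalyse the committed step, were called: Pfkp (-1.39), Pfkl (-1.19) and Pfkm (-1.21). Pfkfb3 (-1.54), which sets their activator, and the pyruvate kinase gene Pkm (-1.27) completed the list. There were 7 calls without D14 mouse 3, 4 without sham mouse 3, 1 without sham mouse 1, and none without sham mouse 2.

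Of 37 genes of fatty acid oxidation and peroxisomes, 1 was positive and 1 negative (median -0.27), no more than the shares of 3.4% and 2.89% over all tested genes would give. Cyp4a10, a fatty acid hydroxylase gene with close paralogs, had 1.32 (limma adjusted p = 0.0201). Hadha, the alpha subunit of the mitochondrial trifunctional protein, had 26.7, 30.8 and 53.1 RPKM in D14 bound RNA, 32.6, 33.3 and 27.9 RPKM in D14 unbound RNA, 133, 105 and 110.0 RPKM in sham bound RNA and 37.7, 42.1 and 40.0 RPKM in sham unbound RNA. Only sham bound RNA stood high, which gave -1.35 (SE 0.33, limma adjusted p = 0.0333). Of 37 genes of amino acid catabolism and gluconeogenesis, 0 were called in the difference of differences, with a median of -0.36, although 12 fell in bound RNA. Leaving out D14 mouse 3 gave 3 positive and 5 negative calls in the lipid list and 3 negative calls in the amino acid list.

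Injury genes were split by member. Of 45 tested genes of tubule injury and failed repair, 1 was positive and 6 were negative, with a median of -0.23. Havcr1 was the positive one at 2.00 (SE 0.48, limma adjusted p = 0.0307), with bound minus unbound differences of 1.52, 0.69 and -0.65 in D14 mice 1 to 3 and -1.26, -1.15 and -2.01 in sham mice. D14 mouse 3 was the only injured mouse of this comparison with less Havcr1 in bound than in unbound RNA.

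The negative ones were led by Krt18, a keratin of simple epithelia. It had 108, 83.2 and 273 RPKM in D14 bound RNA, 65.8, 51.1 and 141 RPKM in D14 unbound RNA, 175, 137 and 232 RPKM in sham bound RNA and 30.0, 19.9 and 28.4 RPKM in sham unbound RNA. The bound groups overlapped, and every D14 unbound library was above every sham unbound library. Its value was -1.98 (SE 0.33, limma adjusted p = 0.0119), with neither fraction called alone (bound -0.39, adjusted p = 0.53, and unbound 1.58, adjusted p = 0.052). Krt8 (-1.16), its partner, Krt7 (-1.68) and Krt23 were called as well.

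Lcn2, the gene of the secreted injury protein lipocalin 2, had 19.9, 11.6 and 58.2 RPKM in D14 bound RNA, 19.5, 13.4 and 81.0 RPKM in D14 unbound RNA, 13.4, 9.36 and 33.6 RPKM in sham bound RNA and 6.07, 2.97 and 3.56 RPKM in sham unbound RNA. It rose in unbound RNA (log2 2.64, limma adjusted p = 0.048) and not by the test in bound RNA (0.54, adjusted p = 0.6), and its value was -2.10 (SE 0.42, adjusted p = 0.0199). Vim, the gene of the mesenchymal filament protein vimentin, had 31.0, 28.6 and 134 RPKM in D14 bound RNA, 47.9, 32.3 and 146 RPKM in D14 unbound RNA, 37.3, 35.3 and 115 RPKM in sham bound RNA and 13.7, 11.8 and 12.9 RPKM in sham unbound RNA. Mouse 3 was the highest of each D14 group and of sham bound RNA for both genes. The value of Vim was -2.32 (SE 0.43, limma adjusted p = 0.0156).

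Several injury genes rose in both fractions, and for these the test of the difference between the fractions did not pass. Vcam1, an adhesion molecule of failed repair, averaged 15.4 ± 9.08 and 13.8 ± 11.1 RPKM in D14 bound and unbound RNA, against 0.928 ± 0.159 and 0.593 ± 0.148 RPKM in sham bound and unbound RNA (SD, n = 3 each). It rose by a log2 of 3.34 in bound and 3.46 in unbound RNA (limma adjusted p = 0.0012 and 0.0046), and the difference of differences was -0.12 (SE 0.31, adjusted p = 0.833). The transcription factor gene Sox9 had -0.23 (adjusted p = 0.552), the keratin gene Krt20 0.48 (adjusted p = 0.432), the osteopontin gene Spp1 0.96 (adjusted p = 0.105) and the chemokine gene Ccl2 0.83 (adjusted p = 0.116), and each of these rose in both fractions. The cell cycle inhibitor gene Cdkn1a rose in bound RNA (log2 2.66, limma adjusted p = 0.0031) and had 0.92 (adjusted p = 0.172). With SEs of 0.24 to 0.42 (log2), these values do not show that the fractions changed alike.

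The injury list had 3 positive and 6 negative calls without D14 mouse 3. Without sham mouse 3, which had the highest Lcn2, Vim and Havcr1 of its group in bound RNA, it had 0 and 6. It had 0 and 3 without sham mouse 2.

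Markers of podocytes, the filtering cells of the glomerulus, were highest in sham bound RNA. All 10 podocyte markers were higher in bound than in unbound RNA in sham, and their list median of bound minus unbound was 0.86, 0.72 and 0.30 in D14 mice 1 to 3 against 1.30, 1.83 and 3.62 in sham mice. Of these, 2 were called negative, among them Synpo, the gene of synaptopodin, an actin-associated protein of the foot process (-1.59, limma adjusted p = 0.0272). The list median was -1.61. Summed podocyte RPKM was 131 to 183 in D14 bound and 54.6 to 118 in D14 unbound RNA, against 287 to 1228 in sham bound and 55.0 to 62.9 in sham unbound RNA. The highest sham value came from mouse 3. A single podocyte gene was called without D14 mouse 3, and likewise 1 without sham mouse 3, where the list median was -1.02.

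Principal cells of the collecting duct gave a like picture with 1 negative call of 9, Gata3 (-1.51, limma adjusted p = 0.0467), a transcription factor gene, and a median of -1.61. The water channel gene Aqp2 had 57.7, 44.6 and 30.4 RPKM in D14 bound RNA, 21.1, 30.7 and 32.3 RPKM in D14 unbound RNA, 39.2, 114 and 350.1 RPKM in sham bound RNA and 13.9, 22.1 and 17.2 RPKM in sham unbound RNA. Sham mouse 3 set the high end, and the value of -2.08 (SE 0.70) did not pass (limma adjusted p = 0.0808). Summed RPKM of the list was 172 to 321 in D14 bound and 167 to 199 in D14 unbound RNA, against 264 to 2105 in sham bound and 129 to 185 in sham unbound RNA. None of the list was called without D14 mouse 3 or without sham mouse 3, where the median was -0.95.

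In intercalated cells, 2 of 11 markers were negative (median -0.57). Atp6v1b1, a subunit of the proton pump, had 11.9, 7.29 and 20.4 RPKM in D14 bound RNA, 13.1, 14.0 and 13.6 RPKM in D14 unbound RNA, 32.0, 31.1 and 73.4 RPKM in sham bound RNA and 7.20, 9.38 and 11.7 RPKM in sham unbound RNA, a value of -2.27 (SE 0.45, limma adjusted p = 0.0199). The transcription factor gene Dmrt2 had -1.92 (adjusted p = 0.0266) and was lower in bound than in unbound RNA at D14 (log2 -1.40, adjusted p = 0.029). In the thick ascending limb, Kcnj1, the potassium channel ROMK, had -1.31 and the claudin gene Cldn10 had 1.23, as 1 negative and 1 positive call of 11. In the distal convoluted tubule, the kinase gene Wnk4 had -1.16 and the sodium pump subunit gene Fxyd2 had 1.84, the calls among 10. Cldn10 and Fxyd2 are also transcribed in the proximal tubule.

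D14 mice 1 and 2 differed from D14 mouse 3 in markers of the thick ascending limb, intercalated cells and endothelium. The D14 mice were less far apart in the distal convoluted tubule (list medians of -0.88, -0.80 and -0.52 in mice 1 to 3). The same held for principal cells (0.24, -0.21 and -0.17). The list median of bound minus unbound RNA was -1.52, -1.62 and -0.41 in D14 mice 1 to 3 for the thick ascending limb, against -0.49, -0.75 and 0.01 in sham mice. For intercalated cells it was -1.44, -1.76 and -0.14 at D14, against -0.26, -0.19 and -0.44 in sham. Without D14 mouse 3, 5 thick ascending limb genes, 5 distal convoluted tubule genes and 4 intercalated cell genes were called negative. For endothelium the medians were -1.04, -0.75 and 0.12 at D14, against 0.03, 0.28 and 0.68 in sham, with 1 of 15 markers called (Plat, the gene of tissue plasminogen activator, -1.83, limma adjusted p = 0.0457) and 12 of 15 without D14 mouse 3.

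**Figure D4:**
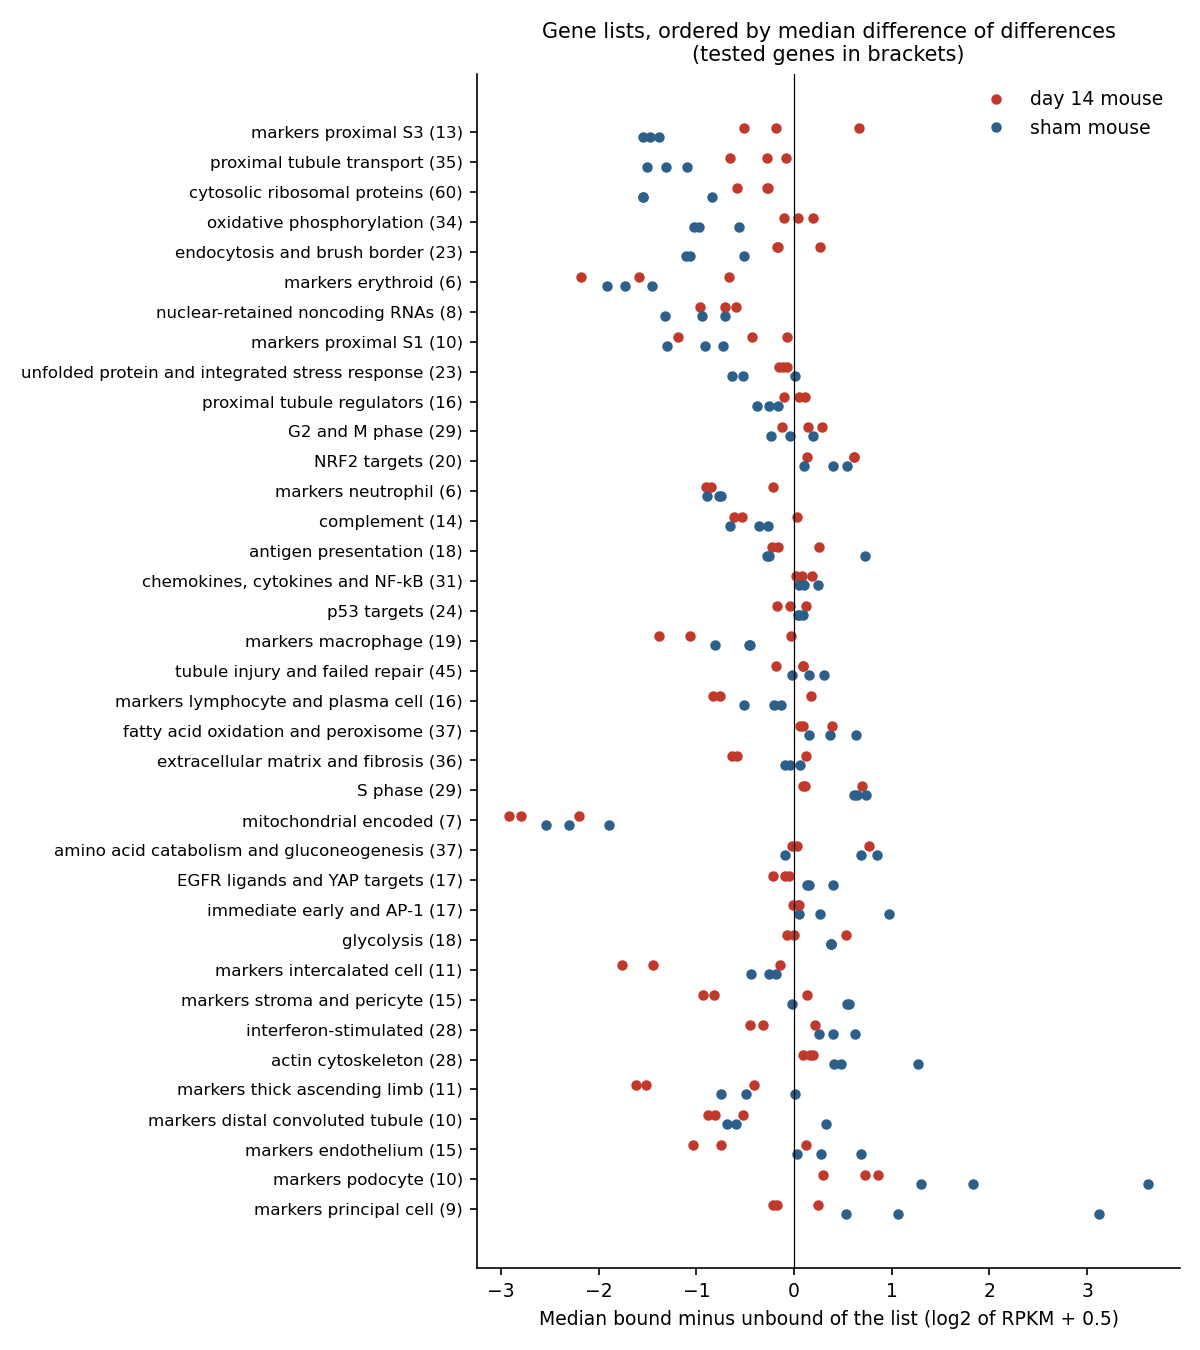
Median bound minus unbound RNA (log2 of RPKM + 0.5) of each gene list in every D14 mouse (upper points) and sham mouse (lower points), lists ordered by their median difference of differences, with the number of tested genes in brackets. In the 5 lists at the top all D14 points lie to the right of the sham points, and in the podocyte and principal cell lists at the bottom all lie to their left.

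Calls among stromal, matrix and immune genes stand beside shares of 3.4% positive and 2.89% negative over all tested genes. Of 15 stromal and pericyte markers, 2 were negative, Vim and the pericyte gene Rgs5 (-1.36, limma adjusted p = 0.0415), which rose in unbound RNA (log2 1.74, adjusted p = 0.029). Of 36 matrix genes 2 were negative. Sparc, a matrix-binding glycoprotein gene, rose in unbound RNA (log2 2.43, adjusted p = 0.044) and had -1.63 (adjusted p = 0.0256), and Timp2, a metalloproteinase inhibitor gene, had -1.33. The collagen gene Col1a1 rose in both fractions (log2 3.41 in bound and 4.29 in unbound RNA) and had -0.88 (SE 0.44, limma adjusted p = 0.208). Leaving out D14 mouse 3 gave 5 negative stromal and 3 negative matrix genes.

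No macrophage marker of 19 was called, nor any of 31 chemokine, cytokine and NF-kB genes, 18 antigen presentation genes, 14 complement genes or 6 erythroid genes. With 6.28% of all tested genes called, the absence of calls in lists of these sizes is not a result about the lists. Leaving out D14 mouse 3 gave 1 positive and 3 negative calls in the chemokine list and none in the other 4. Summed macrophage RPKM was 187 to 2834 in D14 bound and 509.6 to 2830.2 in D14 unbound RNA, against 57.7 to 107 in sham bound and 115 to 175 in sham unbound RNA. The macrophage gene Cd68 had 3.47, 2.23 and 36.8 RPKM in D14 bound RNA and 9.71, 8.61 and 40.1 RPKM in D14 unbound RNA, against 2.56, 2.09 and 0.419 RPKM in sham bound RNA and 4.37, 3.74 and 3.90 RPKM in sham unbound RNA. D14 mouse 3 was the high library in both fractions. The value of Cd68 was 0.14 (SE 0.56, limma adjusted p = 0.895) and turned to -0.34 without that mouse. Of 16 lymphocyte and plasma cell markers 1 was called, the immunoglobulin gene Ighm (-2.15, adjusted p = 0.03), and Lcn2 was the 1 call among 6 neutrophil markers. The lymphocyte list had 2 negative calls without D14 mouse 3. No marker of these lists that was tested stood at 0 in all 12 libraries. What part RNA of other cell types had in the values above was not tested.

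The remaining lists had 1 to 3 calls each, beside shares of 3.4% positive and 2.89% negative over all tested genes. With so few calls, the counts name single genes and are not results about the lists. Positive calls were Birc5 (1.19) among 29 genes of G2 and M phase and the p53 targets Ccng1 (1.05) and Perp (1.09) among 24. So were the endoplasmic reticulum stress gene Manf (0.96) among 23 stress response genes and the glutathione synthesis gene Gclm (1.15) among 20 NRF2 targets. Gas5 (1.34) was the positive call among 8 noncoding RNAs. Negative calls were the replication genes Pold1 (-1.10) and Mcm7 (-1.14) among 29 S phase genes, Btg2 (-1.29) among the p53 targets, Dusp1 (-0.95) among 17 immediate early genes, Oasl2 (-1.20) among 28 interferon-stimulated genes, Amotl2 (-1.96) and Lats2 (-1.16) among 17 EGFR and YAP genes, and Tpm3 (-0.80) among 28 actin genes. The proliferation genes Mki67 (0.06, limma adjusted p = 0.89) and Foxm1 (-0.18, adjusted p = 0.745) did not pass. The counts that follow come from a fit with 716 positive and 1038 negative calls over all 13721 tested genes. Leaving out D14 mouse 3 gave 7 negative and 1 positive call among the S phase genes, 4 negative calls each among the interferon-stimulated and the actin genes, and 4 positive calls and 1 negative among the p53 targets. It gave 2 positive and 1 negative call among the stress response genes and 1 positive and 2 negative among the NRF2 targets. It also gave 3 negative calls among the EGFR and YAP genes and 1 negative with 0 positive among the noncoding RNAs.

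The length of a gene moved with the result. Positive genes had a median exon length of 2247.5 bases and negative genes of 6103.5 bases, against 3918.5 bases over all tested genes. In the shortest class, up to 1000 bases, the median bound minus unbound RNA was -0.13, -0.04 and -0.40 in D14 mice 1 to 3 and -0.72, -0.68 and -0.27 in sham mice. In the longest class, over 10000 bases, it was -0.09, -0.07 and 0.26 in D14 mice and 0.33, 0.43 and 0.37 in sham mice. Sham mice and D14 mouse 3 thus had relatively more long transcripts in bound RNA, and D14 mice 1 and 2 did not. The share of positive calls was 6.76% in the shortest and 0.273% in the longest class, and that of negative calls 0.393% and 6.19%.

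Removing each mouse's exon length trend by loess, an alternative chosen after seeing the data, called 1063 genes, 69.9% of them positive and 641 of them among the 862. With it, 19 of 35 transporter genes, 6 of 13 S3 genes, 12 of 34 oxidative phosphorylation genes and 18 of 60 ribosomal protein genes were positive, and 5 of 18 glycolysis genes, 4 of 10 podocyte and 4 of 9 principal cell markers were negative. After quantile normalization, 324 genes were positive and 141 negative over all 13721 tested. Of the lists, 4 of 35 transporter, 2 of 13 S3, 2 of 34 oxidative phosphorylation and 5 of 60 ribosomal protein genes were positive. Negative were then 4 of 18 glycolysis genes and 1 each of the oxidative phosphorylation, podocyte and principal cell lists. Without a filter on low values, 2 transporter genes and 1 ribosomal protein gene were positive, with 0 calls in the other 5 lists named here. That fit called 89 genes positive and 29 negative of 26077. Median GC content was 49.1% in positive and 51.6% in negative genes, against 49.9% over all.

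**Figure D5:**
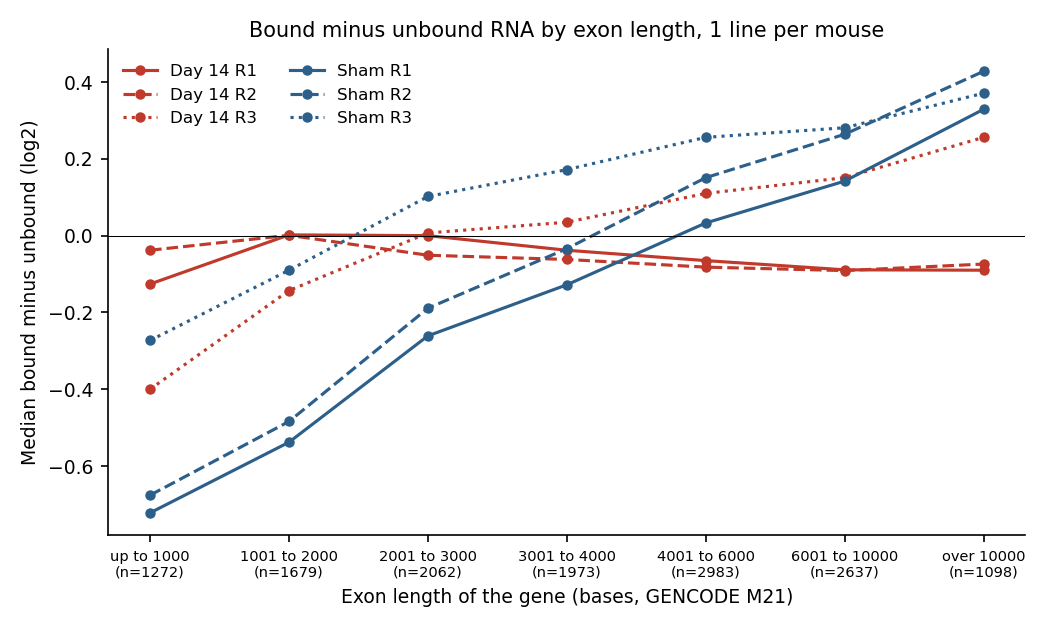
Median bound minus unbound RNA (log2) by exon length class of the gene, 1 line per mouse, for 3 D14 and 3 sham mice, with the number of genes per class under the axis. Sham lines rise from between -0.72 and -0.27 to between 0.33 and 0.43, while the lines of D14 mice 1 and 2 stay within -0.13 and 0.00.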

How the data were processed

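RNA was sequenced from bound and unbound fractions of 12 kidneys, 3 each in sham, D2, D7 and D14 mice. The table the authors deposited holds RPKM, 1 column per library. Per the submitters' processing notes, STAR 2.0.4b, featureCounts 1.4.5 of Subread and edgeR were used. The build, and any use of strand in counting, are not given in the sources used here. Of 41831 lines, 1081 exact repeats were dropped, which left 40750 genes, 14673 of them at 0 in every library. Depth was inferred from the spacing of low values with exon lengths of GENCODE M21: 15720000 to 24650000 reads in the 24 libraries, with 50.2% to 78.1% of values up to 50 reads whole within 0.02 reads.

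In R 4.3.3, limma 3.58.1 was fitted to bound minus unbound log2 of (deposited RPKM + 0.5) of each mouse, with 4 time means and a variance trend. Genes needed at least 1 RPKM in at least 3 of 24 libraries. D14 against sham within a fraction came from 8 group means over 24 libraries. That fit pooled 1 spread per gene over both fractions (median SE 0.303 in each) and did not use which libraries share a mouse. Its SEs therefore do not measure the spread of either fraction alone. P-values were Benjamini-Hochberg adjusted over 13721 genes, and calls have an adjusted p under 0.05. Fold changes on this scale understate low genes. Mice are labelled biological replicates, 3 a group. The p-values rest on a spread pooled over the mice of all 4 times and moderated by the trend, not on the D14 and sham mice alone. With only those mice, the difference of differences called 474 genes.

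Replicate numbers pair the fractions of a mouse: in 12 of 12 pairs, deviations from the group means correlated best with the own number (r 0.268 to 0.67). The labels do not tie mice across times, where r was -0.087 to 0.059 between D14 and sham. On simulated data the test recovered 26% of 200 planted 2-fold and 85.5% of 200 planted 4-fold differences among 13721 genes, with 12 false calls. Differences were planted only in genes above a minimum mean level, so the rates do not cover the lowest genes. Counting noise was added to a spread fitted on the data, which already holds such noise. The simulated differences had independent noise of equal spread at every time and no mouse set apart. These rates need not hold for the data, where D14 mouse 3 stood apart.

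Genes named by size are the 12 largest positive and 12 largest negative calls with at least 5 RPKM in 1 group and no overlap between D14 and sham differences, predicted genes passed over. The 4 members of smallest p of each list and 20 fixed genes were added, and some further list members after their values were seen. Members, lists and tests were chosen with earlier results of these data known. Alternatives were other pseudocounts, filters, scalings and variance models, pairing, each mouse left out, and the exon length trend removed. No sequence is shown, as none carries the comparison. A few called list members are counted but not reported here by name.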

Additional observations from a re-analysis of the deposited data

Results flagged for a closer look

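The difference of differences is itself a test of whether the D14 change differed between bound and unbound RNA, and it passed for 862 genes. Among the genes named by size, the change was relatively higher in bound RNA, on the log2 scale, for Apoc3 (3.30), Mir7016 (3.20), Spink1 (2.96), Scgb1c1 (2.81), Calml4 (2.74), Serpina1a (2.68), Slc7a12 (2.56), Fam25c (2.50), Kap (2.49), Guca2b (2.49), Smlr1 (2.45) and Tmigd1 (2.44). It was relatively lower in bound RNA for Akap8 (-2.73), Shroom4 (-2.68), Krt23 (-2.60), Shroom2 (-2.60), Mylk (-2.57), Ppp1r9a (-2.48), Akap8l (-2.47), Bcor (-2.43), Rapgef3 (-2.43), Arhgap18 (-2.42), Scel (-2.36) and Ranbp2 (-2.35). Of the fixed genes, Havcr1 (2.00), Lcn2 (-2.10) and Slc22a6 (1.04) passed the same test. Each of these calls was lost when D14 mouse 1 or D14 mouse 2 was left out.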

How the results depend on the processing

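The difference of differences called 27 genes with no replicate block, 474 with the spread of D14 and sham mice alone, 118 without a filter on low values and 465 after quantile normalization, and 8 to 1754 with 1 mouse left out. Bound against unbound RNA at D14 called 112, 219 and 160 genes in the first 3 of these, and 59 to 610 with a mouse left out. The same in sham called 3488 to 5621, D14 against sham 596 to 2855 in bound and 21 to 639 in unbound RNA, and 108 in unbound RNA with a pseudocount of 1. A replicate block across times gave 1669 and 135. D14 against D2 called 1 gene after quantile normalization and 11 without D14 replicate 3. The cause of these changes was not tested. The fit without a filter tested 26077 genes, and a fit with a mouse left out has fewer samples. With a mouse left out, the difference of differences count rose for D14 mouse 3 (1754) and sham mouse 3 (1116) and fell for the others. The self-test recovered 26% of 2-fold differences, which limits what a missing call can show.

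The signs that turned among the named genes were those of uncalled genes. With 1 mouse left out, Foxm1 ran from -0.367 to 0.139, Mki67 from -0.018 to 0.223, Lrp2 from -0.305 to 0.056, Vcam1 from -0.210 to 0.041 and Cd68 from -0.385 to 0.470. Without D14 replicate 3 in particular, Foxm1 was 0.139, Mki67 -0.015, Vcam1 0.041 and Cd68 -0.338. Without Sham replicate 3, Lrp2 was 0.030 and Vcam1 0.016. With the length trend removed, Foxm1 was 0.065, Lrp2 0.363, Vcam1 0.219, Cd68 -0.121 and Ptprc 0.101. After quantile normalization Foxm1 was 0.012.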

Other observations

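C1ra, a protease of the classical complement pathway, had 9.18, 7.61 and 211 RPKM in D14 bound RNA and 2.82, 2.39 and 3.58 RPKM in D14 unbound RNA, against 1.47, 5.72 and 1.24 RPKM in sham bound RNA and 0.960, 1.73 and 0.987 RPKM in sham unbound RNA. The bound library of D14 mouse 3 held far more than its own unbound library, and the difference of differences of 2.20 had an SE of 1.10 (limma adjusted p = 0.209). The gene was singled out after its values were seen.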
